A study of Mus musculus with 10 samples.

Results

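Immunoglobulin gene segments with measurable RNA in gonadal white adipose tissue, the fat pad beside the uterus and ovaries, were compared between 5 KO and 5 WT mice. The segments were selected on their level: rows annotated as immunoglobulin constant, variable, joining or diversity segments, pseudogenes left out, with a mean of at least 1 RPKM (read counts scaled to the length of the gene and the depth of the library) over the 10 libraries. This kept 166 of the 244 such segments and of the 40503 genes in the table. There were 147 of 208 variable (V), 8 of 9 constant (C), 9 of 9 joining (J) and 2 of 18 diversity (D) segments. By locus, 83 lay in the heavy chain locus Igh, 79 in the kappa locus Igk and 4 in the lambda locus Igl. The Ighd, Iglc1 and Iglc3 constant genes and the lambda J segments were not analysed here. The mean over all libraries chose the members, so their mean levels are a description, while the difference between KO and WT was not used in the choice. The 2 members nearest above the threshold were Igkv9-129 (1.00 RPKM) and Igkv4-61 (1.02 RPKM), and the nearest segments below it were Ighv1-12 and Igkv7-33 (0.931 RPKM each).

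The KO group was made of 12-week-old female C57BL/6 mice of the line MED19-iAKO, in which Med19 is deleted in adipose tissue after tamoxifen. They were given tamoxifen at 100 mg/kg on 5 days, and the fat pad was taken 14 days later. The WT group was made of female C57BL/6 mice, also 12 weeks old, and the tissue is labelled alike. The sources used here do not say whether the WT mice were given tamoxifen, which promoter drives the inducible Cre, or whether each library came from a single animal beyond the animal number in its name. Med19, which encodes a subunit of the Mediator complex, was measured at 6.79 ± 0.85 RPKM in KO libraries, against 6.70 ± 0.89 RPKM in WT libraries (SD, n = 5 each, 2-sided exact permutation test p = 0.88), so the RNA of the targeted gene did not check the labels. KO and WT below mean the libraries so labelled.

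An antibody is built from paired heavy and light chains. In each B cell precursor a V segment, in the heavy chain also a D segment, and a J segment are joined into a single exon, so a clone of B cells carries its own V gene through all its progeny. The constant gene sets the class: Ighm gives IgM, Igha gives IgA, the Ighg genes give the IgG subclasses, and Igkc and Iglc2 belong to the kappa and lambda light chains. Plasma cells and plasmablasts hold far more of this RNA per cell than resting B cells do, and visceral fat of the mouse holds innate-like B-1 cells, which make natural IgM and depend little on T cell help.

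The libraries held 15178108 to 20178082 reads assigned to genes in KO and 14440547 to 16185629 in WT, as recovered from the RPKM values. Immunoglobulin segments took 0.235% to 0.572% of them in KO libraries and 0.229% to 0.549% in WT libraries. Intervals and tests below cover the spread between these libraries. Of 8 adipocyte genes on a marker list, 7 were called lower in KO, among them Cfd (adipsin) at 1976 ± 289 RPKM in KO libraries, against 8815 ± 1500 RPKM in WT libraries and Adipoq (adiponectin) at 307 ± 42 RPKM in KO libraries, against 713 ± 99 RPKM in WT libraries (SD, n = 5 each). The summed level of that list was 5238 to 5489 RPKM in KO and 13007 to 18833 RPKM in WT libraries. Its part in the immunoglobulin values was not tested. In bulk tissue a change in the number of B lineage cells and a change in the RNA of each cell cannot be told apart.

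Among the 164 members that passed the filter on low values, 1 was called higher in KO and 0 lower by limma at a Benjamini-Hochberg adjusted p under 0.05. Over all 17038 genes tested, 4% were called higher and 1.95% lower. Without adjustment, 10 members (6.10%) had a p under 0.05, against 24.7% of all genes tested. The segment called was Igkv14-111, a kappa V gene. Of the members tested, 109 had a positive change and 55 a negative one; the share of positive changes was 66.5% in members and 68.7% in all genes. The median change was 0.23 on the log2(RPKM + 0.5) scale in members and 0.09 in all genes. The precision differed between them: the 95% interval of a member's change reached a median of 1.27 log2 units to either side, against 0.25 for all genes tested. A smaller difference in a typical segment was not detectable at this spread, and a call after adjustment needed a larger one.

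Both light and heavy constant genes were found in every library, and no constant gene was called. Igkc (ENSMUSG00000076609) had the highest level of all segments. It was measured at 2602, 2949, 1818, 1281 and 2160 RPKM in KO 1, KO 4, KO 7, KO 8 and KO 17, against 2037, 1164, 1556, 3686 and 2408 RPKM in WT 2, WT 9, WT 19, WT 86 and WT 89. The groups overlapped over nearly their whole range, with the highest and the lowest library both in WT. The means were 2162 ± 653 RPKM in KO and 2170 ± 970 RPKM in WT (SD, n = 5 each). Its log2 change was 0.05, with a 95% interval of -0.65 to 0.75 and an adjusted p of 0.95.

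Ighm (ENSMUSG00000076617), the IgM constant gene, followed Igkc in level among the constant genes. It had 1166, 1362, 1038, 544 and 1039 RPKM in KO 1, KO 4, KO 7, KO 8 and KO 17, against 1261, 743, 711, 1475 and 998 RPKM in WT 2, WT 9, WT 19, WT 86 and WT 89. Again WT 86 was the highest library, and KO 8 was the lowest. The log2 change was -0.02 (SE 0.28, adjusted p = 0.98), within an interval of -0.62 to 0.59. IgM made up 63.7% ± 12.5 of the summed heavy constant RPKM in KO libraries and 70.2% ± 8.9 in WT libraries (SD, n = 5 each).

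Igha, the constant gene of IgA, the class of mucosal surfaces, was the next heavy class. It had 334, 477, 137, 379 and 439 RPKM in KO 1, KO 4, KO 7, KO 8 and KO 17, against 296, 118, 386, 503 and 303 RPKM in WT 2, WT 9, WT 19, WT 86 and WT 89. KO 7 and WT 9 were low in their groups and the other 8 libraries lay between 296 and 503 RPKM. KO differed from WT by 0.16 on the log2 scale (SE 0.42, adjusted p = 0.86). The ratio of Igha to Ighm ran from 0.13 in KO 7 to 0.70 in KO 8 among KO libraries and from 0.16 in WT 9 to 0.54 in WT 19 among WT libraries.

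The 4 IgG genes were lower. In Ighg3, Ighg2c and Ighg1 the highest library stood at 9.84, 8.72 and 5.63 times the median library, against 1.41 times in Ighg2b. Ighg3, the subclass that B cells of the mouse make against carbohydrates without T cell help, had 96.5, 700, 67.3, 73.2 and 107 RPKM in KO 1, KO 4, KO 7, KO 8 and KO 17, against 7.83, 43.6, 69.1, 7.18 and 279 RPKM in WT 2, WT 9, WT 19, WT 86 and WT 89. KO 4 was the highest by a wide margin, WT 89 followed, and WT 2 and WT 86 were the lowest. The difference, 1.88 on the log2 scale, had an SE of 1.02 and an adjusted p of 0.29, and its interval ran from -0.39 to 4.14. Ighg3 took 26.8% of the heavy constant RPKM in KO 4 and 0.35% in WT 86.

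Ighg2c, the subclass that goes with interferon-driven responses in C57BL/6 mice, was highest in KO 1 at 97.8 RPKM, and the other 4 KO libraries held 3.18 to 26.8 RPKM, against 5.51 to 12.9 RPKM in the WT libraries. Ighg1, the subclass that goes with interleukin-4, reached 30.3 RPKM in KO 4, 20.8 RPKM in KO 8 and 19.4 RPKM in WT 9, and was at or under 8.39 RPKM in the other 7 libraries. Ighg2b lay between 3.68 and 28.8 RPKM in KO and between 11.7 and 23.5 RPKM in WT libraries. KO 4 was thus the highest library for Ighg1 and, with KO 1 nearly level at 28.7 RPKM, for Ighg2b, and KO 1 was the highest for Ighg2c. Their log2 changes were 0.69 for Ighg2c (SE 0.75), 0.96 for Ighg1 (SE 0.65) and -0.49 for Ighg2b (SE 0.53), with adjusted p of 0.62, 0.40 and 0.62 by limma.

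Of the lambda constant genes only Iglc2 was analysed here, and its level was low beside that of Igkc. Iglc2 had 82.1, 131, 48.8, 27.1 and 21.6 RPKM in KO 1, KO 4, KO 7, KO 8 and KO 17, against 36.9, 32.4, 40.3, 33.4 and 45.9 RPKM in WT 2, WT 9, WT 19, WT 86 and WT 89. The 5 WT libraries lay close together and the KO libraries lay on both sides of them. The log2 change was 0.41 (SE 0.43, adjusted p = 0.61). Iglc2 made up 2.60% ± 1.21 of Igkc plus Iglc2 in KO libraries and 1.96% ± 0.71 in WT libraries (SD, n = 5 each). Iglc1 and Iglc3 are not in this share, so it is not the lambda part of all light chain RNA. The lambda V segments summed to 197 ± 133 RPKM in KO and 138 ± 38 RPKM in WT libraries. Kappa V segments summed to 1355 ± 378 RPKM in KO and 1575 ± 790 RPKM in WT libraries. By the 2-sided exact permutation test of the group means, the smallest p of a constant gene was 0.21 for Ighg1, and the smallest p adjusted over the 8 genes was 0.90. The smallest p that this test can give is 0.0079.

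**Figure D1:**
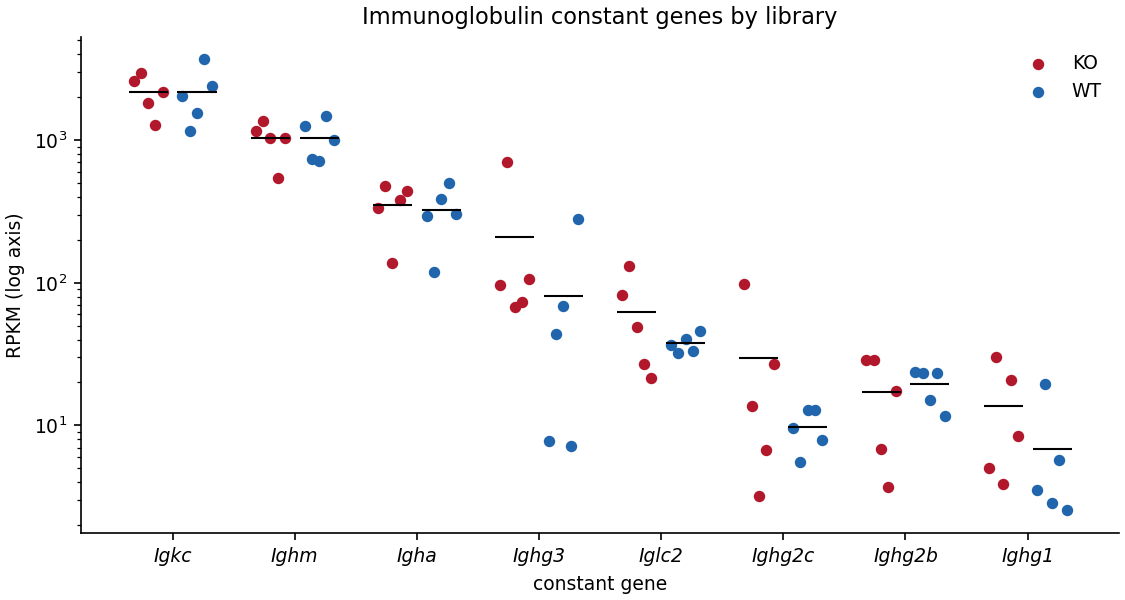
RPKM of the 8 immunoglobulin constant genes (log axis) in 5 KO libraries (red) and 5 WT libraries (blue); each point is a library and the black line is the group mean. The groups overlap in every gene, and a single library lies high for Ighg3 in KO (700 RPKM) and for Ighg2c in KO (97.8 RPKM).

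The heavy chain of IgM exists as a secreted and a membrane form, made from the same gene by a choice of the last exons. The 2 forms part within the CH4 exon. There the secreted form reads on into a short tail with its stop codon, and the membrane form splices to the exons that encode the membrane anchor. The coding ends are shown because the transcript table lists the forms apart. Both are given 5′ to 3′ from GENCODE M21 (GRCm38, minus strand), with the shared coding bases in lower case and the bases after the parting in capitals; the secreted stretch lies at chr12:113420867-113420958 and the membrane stretch, across its intron, within chr12:113419006-113420958.
Ighm secreted: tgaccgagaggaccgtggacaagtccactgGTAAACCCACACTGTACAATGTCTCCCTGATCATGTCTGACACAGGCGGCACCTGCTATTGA
Ighm membrane: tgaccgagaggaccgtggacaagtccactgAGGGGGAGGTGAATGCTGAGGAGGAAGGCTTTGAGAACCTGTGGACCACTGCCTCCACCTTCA
The secreted form has 62 coding bases of its own, all shown, and the membrane form has 125, of which 63 are shown.

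The secreted transcript made up most of the Ighm RNA in every library. It had 943, 1026, 869, 417 and 859 RPKM in KO 1, KO 4, KO 7, KO 8 and KO 17, against 1018, 580, 566, 1206 and 847 RPKM in WT 2, WT 9, WT 19, WT 86 and WT 89. The membrane transcript had 47.6, 48.5, 33.0, 49.4 and 51.1 RPKM in the same KO libraries, against 57.5, 44.2, 52.0, 45.4 and 41.3 RPKM in the same WT libraries. The membrane form was thus nearly level over the libraries while the secreted form was spread widely in both groups. The secreted form exceeded the membrane form 18.5 ± 6.6 times in KO and 17.8 ± 6.2 times in WT libraries (SD, n = 5 each), with extremes of 8.46 in KO 8 and 26.6 in WT 86. The log2 changes were -0.04 for the secreted form (SE 0.29) and -0.07 for the membrane form (SE 0.14), with adjusted p of 0.98 and 0.92 by limma over the transcript table. How the authors' program divided reads between the 2 transcripts is not stated in the labels.

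Levels of the constant genes were set beside Jchain, the small protein that joins IgM and IgA into polymers and is made by plasma cells and plasmablasts, and beside B cell genes, in 7 pairs over the 10 libraries. Igkc and Jchain had a Pearson r of 0.89 and a Spearman rho of 0.88 (permutation p = 0.00099 and 0.0017 with 100000 resamples; 0.0069 and 0.012 adjusted over the 7 pairs). Leaving out WT 9 and WT 86, the libraries farthest from the median of Igkc, r was 0.82. Igha and Jchain had an r of 0.80 and Ighm and Jchain 0.72, with adjusted permutation p of 0.012 and 0.046; without the 2 libraries farthest on Igha or Ighm these were 0.55 and 0.75. With 8 libraries left, the adjusted exact permutation p of the 3 pairs were 0.10 for Igkc, 0.22 for Igha and 0.10 for Ighm.

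The pairs with genes of the B cell surface had a lower r than the Jchain pairs over the 10 libraries. The difference between pairs was not tested. Igkc had an r of 0.23 and Ighm an r of 0.29 with Cd79a, the signalling chain of the B cell receptor, and Ighm an r of 0.03 with Ms4a1, which encodes CD20 (permutation p adjusted over the 7 pairs 0.62, 0.58 and 0.94). Without KO 8 and WT 19, the libraries farthest on Ighm, the 2 Ighm pairs had an r of 0.69 and 0.61, and without WT 9 and WT 86 Igkc and Cd79a had an r of -0.15. Igkc and Mzb1, a chaperone of antibody assembly, had an r of 0.67 (adjusted permutation p = 0.066), and 0.39 without WT 9 and WT 86. All of these genes come from the same libraries and share their depth.

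**Figure D2:**
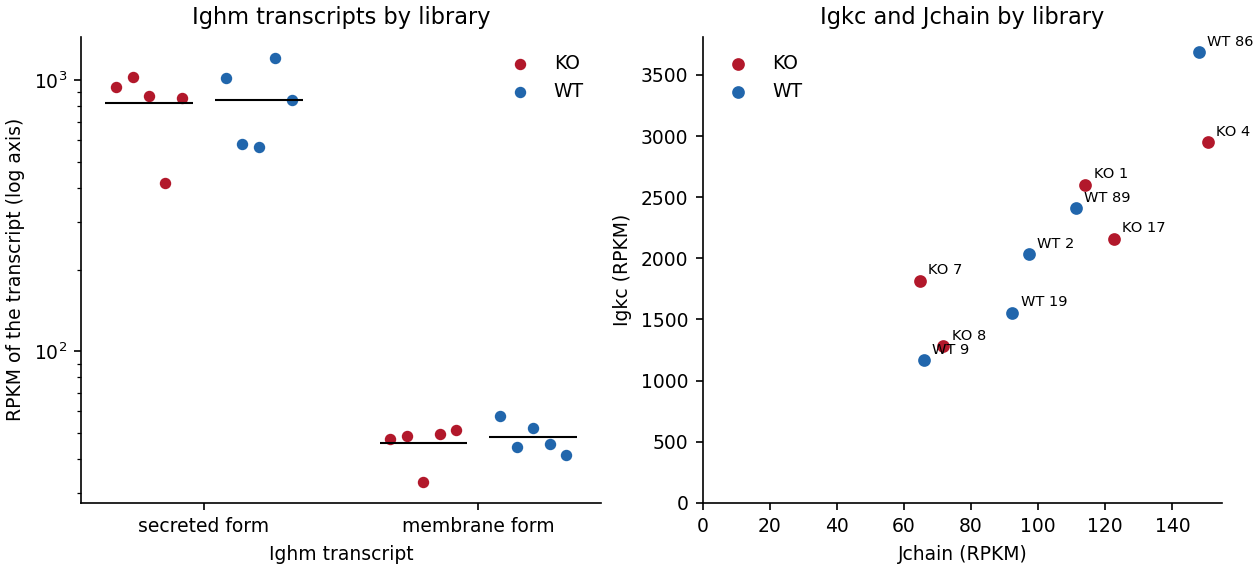
Left, RPKM of the secreted and the membrane Ighm transcript (log axis) in KO (red) and WT (blue) libraries, with a point per library and a line at the group mean. Right, Igkc against Jchain in RPKM, each point a library named by group and animal; KO and WT libraries lie along the same band, with r = 0.89 on the log2 scale.

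Summed by class, the ranges of KO and WT overlapped in every class. Heavy constant genes summed to 1027 to 2612 RPKM in KO and 953 to 2027 RPKM in WT libraries. The 71 heavy V segments summed to 568 to 1100 RPKM in KO and 490 to 1016 RPKM in WT libraries. The 73 kappa V segments summed to 871 to 1875 RPKM in KO and 890 to 2769 RPKM in WT libraries. The log2 ratio of the group means, KO to WT, was 0.16, 0.06 and -0.22 for these 3 classes and 0.72 and 0.51 for lambda constant and lambda V, all without a test because the members were summed over a chosen list. Without KO 4 the 2 lambda ratios were 0.25 and 0.03, and without WT 86 the kappa V ratio was 0.09. The share of all reads was highest in KO 4 (0.572%) and WT 86 (0.549%) and lowest in KO 8 (0.235%) and WT 9 (0.229%). Igkc stood at 1.33 ± 0.15 times the summed heavy constant RPKM in KO and 1.42 ± 0.25 times in WT libraries (SD, n = 5 each), a narrower spread than in the single genes.

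**Figure D3:**
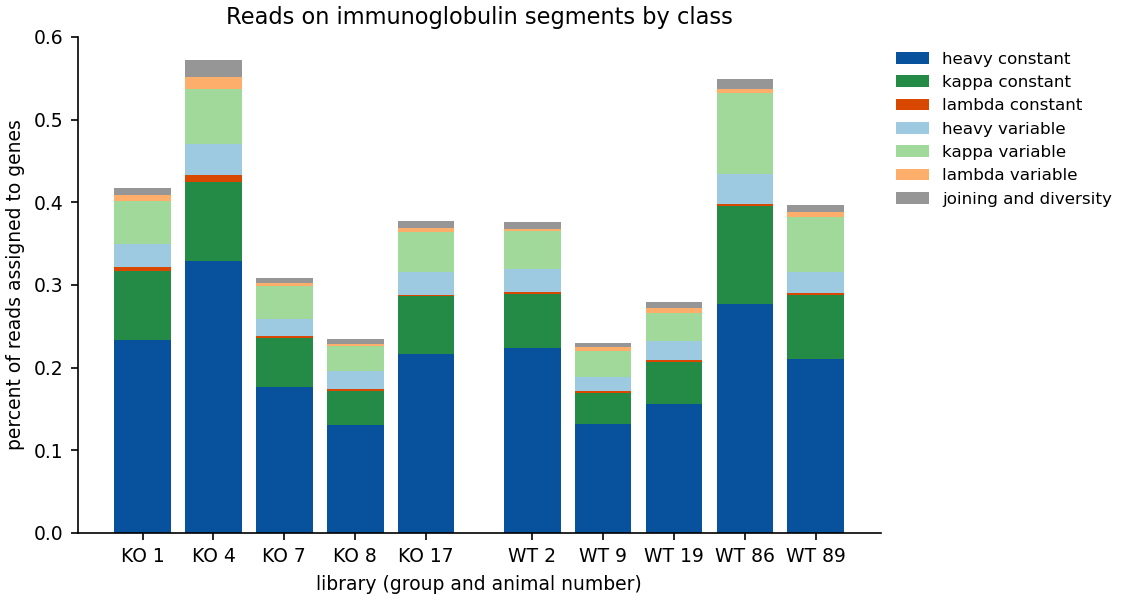
Percent of all reads assigned to genes that fell on immunoglobulin segments, stacked by class, in each KO library (left) and WT library (right). Totals run from 0.235% to 0.572% in KO and from 0.229% to 0.549% in WT, and heavy constant genes are the largest class in every library.

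Joining segments encode the end of the variable domain. The 5 kappa J segments lie side by side upstream of Igkc and are short, so few reads give a high RPKM. How reads that overlap a segment only in part were counted is not stated in the labels. The segments are printed because their levels differ widely from each other. The sequences are from GENCODE M21 (GRCm38, plus strand, chr6:70722562-70723923), and capitals mark the letters TTCGG, which in the reading frame of the segment begin the phenylalanine-glycine motif of the J region.
Igkj1: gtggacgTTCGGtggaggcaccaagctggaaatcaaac
Igkj2: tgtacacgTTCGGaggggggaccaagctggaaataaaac
Igkj3: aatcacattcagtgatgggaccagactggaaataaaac
Igkj4: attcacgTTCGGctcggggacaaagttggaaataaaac
Igkj5: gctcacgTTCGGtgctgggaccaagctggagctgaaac
The letters were found in 4 of the 5 kappa J segments, Igkj3 being the exception, and on either strand in 10 of 204 V exons (4.9%).

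Igkj3, which is known in the mouse as a non-functional segment, was the lowest of the 5. It had 3.66, 1.37, 7.75, 5.44 and 7.99 RPKM in KO 1, KO 4, KO 7, KO 8 and KO 17, against 5.22, 1.89, 12.0, 13.4 and 3.72 RPKM in WT 2, WT 9, WT 19, WT 86 and WT 89, from 1 to 7 reads per library. The other kappa J segments had at least 34 reads in every library, over lengths that differ by a few bases. Igkj2 had 505 ± 484 RPKM in KO and 480 ± 244 RPKM in WT libraries (SD, n = 5 each), and reached 1360 RPKM in KO 4. Igkj1 had 156 ± 78 RPKM in KO and 167 ± 50 RPKM in WT libraries, Igkj4 had 168 ± 115 RPKM in KO and 126 ± 31 RPKM in WT, and Igkj5 had 130 ± 60 RPKM in KO and 98.6 ± 28.7 RPKM in WT. Igkj4 and Igkj5 were also highest in KO 4, at 369 and 237 RPKM. No kappa J segment was called, the smallest adjusted p being 0.49 for Igkj5.

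Of the 4 heavy J segments, Ighj1 was the most abundant, at 661 ± 473 RPKM in KO libraries, against 518 ± 338 RPKM in WT libraries (SD, n = 5 each). It was highest in KO 4 (1438 RPKM) and in WT 86 (1097 RPKM). Ighj4 had 170 ± 64 RPKM in KO and 140 ± 74 RPKM in WT, and Ighj3 had 151 ± 31 RPKM in KO and 121 ± 36 RPKM in WT libraries. Ighj3 had the smallest spread within groups of all members tested, an SD of 0.37 on the log2 scale. Ighj2 was listed at 99.03 ± 36.0 RPKM in KO libraries, against 76.9 ± 38.4 RPKM in WT libraries, and the step between its values equals 1 read over 54 bases, the length of a transcript at chr12:113429514-113429567 (GENCODE M21, GRCm38) that shares 2 bases with the J segment itself at chr12:113429468-113429515. Of the 9 J segments, none was called, and the log2 changes ran from -0.33 to 0.40. Among D segments, Ighd1-1 had 10.01 to 34.3 RPKM in KO and 8.89 to 81.5 RPKM in WT libraries, from 3 to 28 reads. Ighd4-1, of 11 bases, was above 0 in 4 libraries with 1 or 2 reads each and was not tested.

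Variable segments showed a few dominant genes over a long tail. Ighv11-2 was the first heavy V segment in 9 of 10 libraries, and Igkv14-126 was the first kappa V segment in 9 of 10, the exception for both being WT 89. The 2 encode a heavy and a light chain known from mouse B-1a cells, where they pair in antibodies that bind phosphatidylcholine, a lipid of cell membranes. Ighv11-2 had 153, 171, 187, 81.9 and 170 RPKM in KO 1, KO 4, KO 7, KO 8 and KO 17, against 187, 92.7, 65.4, 537 and 95.7 RPKM in WT 2, WT 9, WT 19, WT 86 and WT 89. Igkv14-126 had 444, 554, 707, 225 and 506 RPKM in the same KO libraries, against 526, 269, 127, 1324 and 260 RPKM in the same WT libraries. WT 86 was highest and WT 19 lowest for both genes, KO 7 was the highest of the KO libraries for both and KO 8 the lowest.

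Neither segment differed between the groups beyond this spread. The log2 change of Ighv11-2 was 0.04 (SE 0.51, adjusted p = 0.97) and that of Igkv14-126 was 0.33 (SE 0.56, adjusted p = 0.77). Ighv11-2 took 20.5% ± 7.7 of the summed heavy V RPKM in KO and 23.6% ± 17.1 in WT libraries, and 52.8% in WT 86. Igkv14-126 took 36.7% ± 14.7 of the summed kappa V RPKM in KO and 29.0% ± 15.6 in WT libraries, and 62.3% in KO 7 (SD, n = 5 each).

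The other V pair known for phosphatidylcholine binding in mouse B-1 cells, Ighv12-3 with Igkv4-91, was looked up after the values were seen. Ighv12-3 had 16.1, 5.83, 3.53, 30.7 and 9.09 RPKM in KO 1, KO 4, KO 7, KO 8 and KO 17, against 11.5, 10.97, 3.19, 18.3 and 1.35 RPKM in WT 2, WT 9, WT 19, WT 86 and WT 89. Igkv4-91 had 56.1, 11.3, 10.2, 70.3 and 26.9 RPKM in the same KO libraries, against 56.3, 27.3, 15.6, 33.7 and 23.7 RPKM in the same WT libraries. KO 8, the lowest KO library for Ighv11-2 and Igkv14-126, was the highest of all 10 for Ighv12-3 and Igkv4-91. Neither was called (adjusted p = 0.68 and 0.93 by limma).

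Near-identical copies could share reads, so the exons were compared. The last 100 bases of the V exons of Ighv11-2 and of its closest relative are shown 5′ to 3′ from GENCODE M21 (GRCm38, chr12:114048241-114048340 and chr12:113981879-113981978, minus strand), with bases that differ in capitals.
Ighv11-2: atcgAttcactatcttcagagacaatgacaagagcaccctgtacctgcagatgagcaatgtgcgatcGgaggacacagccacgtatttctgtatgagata
Ighv11-1: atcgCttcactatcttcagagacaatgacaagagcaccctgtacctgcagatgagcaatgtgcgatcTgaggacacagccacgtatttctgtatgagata
Over 307 bases of the exon the pair differed at 4 (98.7% identical). Ighv11-1 was listed at 0 in 9 libraries and at 0.193 RPKM in WT 9. Of the 147 V members, 77 (52.4%) had a relative among the 204 V exons compared that was at least 95% identical and 11 had a relative at 98% or more. How reads that match several segments were counted is not stated in the labels.

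Families are groups of V segments of like sequence, and those with the most members are given. The 35 members of Ighv1, the largest heavy V family of the mouse, took 29.2% ± 6.1 of heavy V RPKM in KO and 38.2% ± 8.4 in WT libraries. The 8 Ighv5 members took 7.85% ± 2.73 in KO and 4.92% ± 2.21 in WT libraries, and the 6 Ighv2 members 5.25% ± 2.57 in KO and 5.60% ± 1.99 in WT. In kappa, the 17 Igkv4 members took 7.38% ± 4.38 in KO and 8.12% ± 6.15 in WT libraries, and the 8 Igkv6 members 5.06% ± 3.45 in KO and 3.41% ± 2.22 in WT (SD, n = 5 each). These shares were not tested, and the ranges of KO and WT overlapped in each of these families. In lambda, Iglv1 took 64.8% ± 13.8 of lambda V RPKM in KO and 67.6% ± 8.1 in WT libraries, followed by Iglv2 and Iglv3.

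Among the next most abundant V segments, Igkv12-89 had 184, 77.6, 60.3, 60.0 and 85.9 RPKM in KO 1, KO 4, KO 7, KO 8 and KO 17, against 179, 225, 62.6, 252.1 and 828 RPKM in WT 2, WT 9, WT 19, WT 86 and WT 89. WT 89 carried it as 42.4% of all kappa V RPKM. Its log2 change was -1.37 (SE 0.59), with an adjusted p of 0.18. Ighv1-55 had 27.6 ± 8.4 RPKM in KO and 71.5 ± 51.7 RPKM in WT libraries, again with WT 89 highest at 159 RPKM, and a log2 change of -1.13 (SE 0.44, adjusted p = 0.14).

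Igkv8-16 and Ighv9-3 were high in KO 4. Igkv8-16 had 373 RPKM there, 31.9 to 56.4 RPKM in the other KO libraries and 36.0 to 136 RPKM in the WT libraries. Ighv9-3 had 122 RPKM in KO 4, 11.2 to 26.2 RPKM in the other KO libraries and 12.1 to 30.9 RPKM in WT. Igkv15-103 was high in WT 89, at 232 RPKM, with 23.3 to 123 RPKM in KO libraries and 8.00 to 18.6 RPKM in the other 4 WT libraries. Iglv1 reached 258 RPKM in KO 4, and Ighv6-3 and Ighv6-6 were even, at 20.3 to 40.5 RPKM and 23.3 to 36.6 RPKM in KO and 25.1 to 43.5 RPKM and 14.5 to 41.3 RPKM in WT libraries. None of these segments was called.

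**Figure D4:**
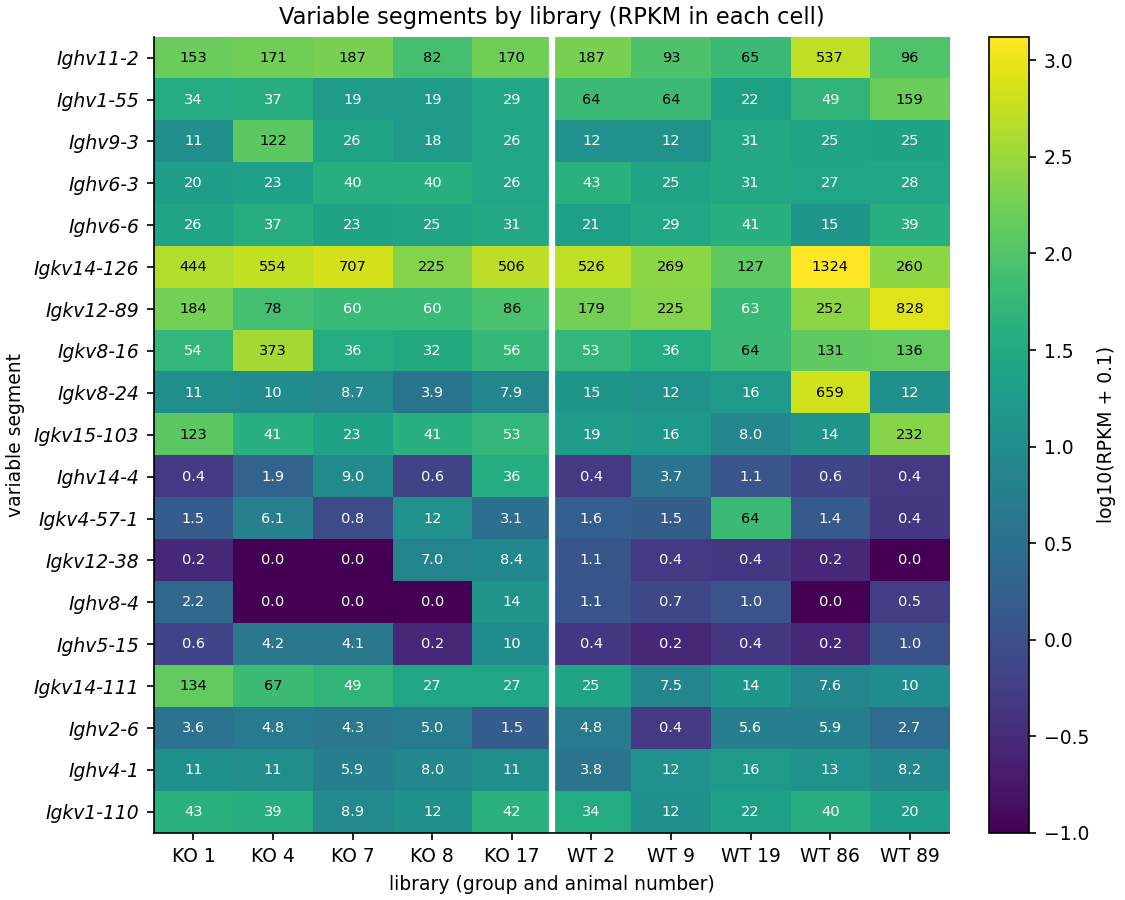
RPKM of 19 variable segments (rows) in the 5 KO libraries (left) and 5 WT libraries (right); colour is log10(RPKM + 0.1) and the number in each cell is the RPKM. The first 10 rows are the most abundant heavy and kappa segments, followed by the 5 further segments with the most uneven levels, Igkv14-111 and the most even segments; Igkv8-24 stands out in WT 86 (659 RPKM) and Igkv4-57-1 in WT 19 (63.6 RPKM).

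Many V segments had a library far above the median library. The highest library was at least 5 times the median library in 59 of the 164 members tested (36.0%), against 204 of the 17038 genes tested (1.20%) and 0.888% of those with a mean of 1 to 100 RPKM. Kappa V segments did so in 39 of 72 cases and heavy V segments in 17 of 71. A mean of at least 1 RPKM can rest on a single high library, so the share in members is partly set by their selection. All genes tested passed only the filter on low values, and read counts were not matched. The most uneven was Igkv8-24, with 659 RPKM and 3480 reads in WT 86, 3.93 to 11.2 RPKM in the KO libraries and 11.5 to 16.4 RPKM in the other 4 WT libraries. Its highest library stood at 58.0 times the median. Because the highest KO library lay below the lowest WT library, Igkv8-24 was the 1 member whose groups did not overlap with KO below WT, which 2.15% of all genes tested did. Its log2 change of -1.86 had an SE of 1.00 and an adjusted p of 0.28.

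Of the next most uneven segments, some were high in 1 animal and others in 2 or 3. Ighv14-4 had 35.9 RPKM in KO 17, 0.40 to 9.05 RPKM in the other KO libraries and 0.38 to 3.68 RPKM in WT. Igkv4-57-1 had 63.6 RPKM in WT 19, 0.78 to 12.0 RPKM in KO and 0.37 to 1.58 RPKM in the other WT libraries. Ighv8-4 had 13.7 RPKM in KO 17 and at most 2.24 RPKM elsewhere. Ighv5-15 had 10.2 RPKM in KO 17, 4.24 RPKM in KO 4 and 4.14 RPKM in KO 7, and at most 0.96 RPKM in WT libraries. Igkv12-38 had 8.36 RPKM in KO 17 and 7.02 RPKM in KO 8; it did not pass the filter and was not tested. The most even V segments were Ighv2-6, Ighv4-1, Ighv6-6 and Igkv1-110, whose highest library was 1.30 to 1.51 times the median.

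Over the 147 V members, the highest library was a KO library for 91 and a WT library for 56. KO 4, the deepest library, was the highest for 32 and KO 17 for 27, and KO 7 for 4. Of the segments at 5 times the median or more, 34 peaked in KO and 23 in WT libraries, and KO 17 held 14 of them, KO 4 and WT 19 held 10 each, and KO 7 held 1. Every library had at least 1. The closest relative in sequence had a median identity of 95.1% in these 57 segments and of 95.1% in the other 90. Neither split between KO and WT libraries was tested or set beside the share over all genes. Of all genes tested, 68.7% had a positive change.

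The Igkv8-24 exon is shown with its closest relative to mark how far the 2 can be told apart. Both are the last 100 bases of the V exon, 5′ to 3′, from GENCODE M21 (GRCm38, chr6:70216858-70216957 and chr6:70117061-70117160, minus strand), with differing bases in capitals.
Igkv8-24: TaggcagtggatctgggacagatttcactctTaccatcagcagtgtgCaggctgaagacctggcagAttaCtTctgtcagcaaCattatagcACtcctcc
Igkv8-30: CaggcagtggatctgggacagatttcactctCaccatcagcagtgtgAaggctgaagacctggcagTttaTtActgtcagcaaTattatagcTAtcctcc
The exons differed at 26 of 316 bases. Igkv8-30 had 16.7 RPKM in WT 86, within the 6.16 to 28.4 RPKM of the other WT libraries.

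The number of segments that shared the RNA also differed between animals. The effective number, the inverse of the summed squared shares, of heavy V segments was 16.2 ± 5.9 in KO and 13.4 ± 9.0 in WT libraries, with extremes of 27.7 in WT 19 and 3.5 in WT 86. For kappa V it was 7.1 ± 3.0 in KO and 7.8 ± 6.7 in WT libraries (SD, n = 5 each), from 2.5 in KO 7 to 19.7 in WT 19. The leading heavy segment took 20.5% ± 7.7 in KO and 25.4% ± 16.3 in WT libraries. Neither quantity was tested, as both are sums over the chosen segments.

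Libraries of the same group were spread more widely in these segments than in most genes. The within-group SD of log2(RPKM + 0.5) had a median of 1.02 in the 164 members tested and 0.17 in all 17038 genes tested. It ran from 0.37 to 1.96 in members, all of them lay above the median of all genes, and 122 (74.4%) were among the 5% of genes with the widest spread. Heavy V segments had a median SD of 1.00, kappa V segments 1.14 and heavy constant genes 1.05. Members were chosen by a mean that a single high library can carry, and 48 had under 10 reads in at least 5 libraries. All genes were not matched to them on either point, and the part of both in this contrast was not tested.

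**Figure D5:**
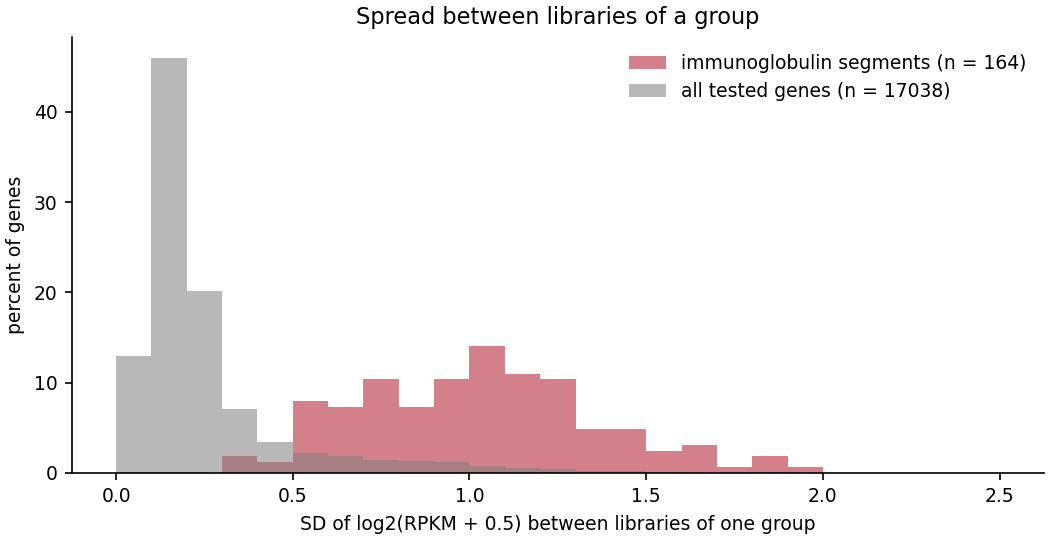
Percent of genes (y axis) by the within-group SD of log2(RPKM + 0.5) between libraries (x axis), for 164 immunoglobulin segments (red) and all 17038 genes tested (grey). The segments centre near 1.02 and all genes near 0.17.

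Igkv14-111 was the member called. It had 134, 66.9, 49.5, 27.4 and 27.2 RPKM in KO 1, KO 4, KO 7, KO 8 and KO 17, against 25.0, 7.53, 14.3, 7.64 and 10.05 RPKM in WT 2, WT 9, WT 19, WT 86 and WT 89. Every KO library lay above every WT library, with KO 17 and WT 2 separated by little; 6.96% of all genes tested were so ordered, and Igkv14-111 was the 1 member that was. The means were 61.1 ± 44.2 RPKM in KO and 12.9 ± 7.3 RPKM in WT (SD, n = 5 each). The log2 change was 2.08 (SE 0.47, adjusted p = 0.033 by limma over all genes tested), with a 95% interval of 1.04 to 3.12. The call was lost with median-ratio scaling, with no filter on low values, with voom on recovered reads and without KO 1, KO 4, KO 7, WT 9, WT 19, WT 86 or WT 89, while the change ran from 1.73 to 2.35 over all alternatives.

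The closest relative of Igkv14-111 among the V exons was Igkv14-126, the most abundant V segment. The last 100 bases of both exons are shown 5′ to 3′ from GENCODE M21 (GRCm38, chr6:68256770-68256869 and chr6:67896543-67896642, plus strand), with differing bases in capitals.
Igkv14-111: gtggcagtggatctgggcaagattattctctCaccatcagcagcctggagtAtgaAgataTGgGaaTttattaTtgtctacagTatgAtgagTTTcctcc
Igkv14-126: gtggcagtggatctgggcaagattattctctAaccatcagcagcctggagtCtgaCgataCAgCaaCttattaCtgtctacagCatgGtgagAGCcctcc
The pair differed at 27 of 298 bases (90.9% identical), 13 of them in the stretch shown. In WT 86, where Igkv14-126 was at its highest (1324 RPKM), Igkv14-111 had 7.64 RPKM, close to the lowest of all libraries.

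Genes of the cells that make or bind antibodies were read from lists. Of 23 tested B cell genes none was called in either direction, with a median log2 change of -0.01 and a summed level of 108 to 123 RPKM in KO and 87.5 to 137 RPKM in WT libraries. Among the defining genes of B cells, Cd79a had 4.79 ± 0.57 RPKM in KO and 5.32 ± 1.63 RPKM in WT (SD, n = 5 each). The most abundant of the list were Cd37, a tetraspanin, at 22.7 ± 2.9 RPKM in KO libraries, against 19.8 ± 3.3 RPKM in WT, and Ebf1, a lineage factor also found in stromal cells, at 10.2 ± 1.4 RPKM in KO libraries, against 11.1 ± 1.7 RPKM in WT libraries. Of 18 tested plasma cell genes, 1 was called higher and 0 lower: Ssr4, a subunit of the translocon-associated complex that many secretory cells express, had 30.9 ± 1.9 RPKM in KO and 24.5 ± 1.9 RPKM in WT libraries (log2 change 0.33, adjusted p = 0.022). Jchain had 105 ± 36 RPKM in KO and 103 ± 30 RPKM in WT libraries, and Xbp1, which drives the secretory programme, 65.5 ± 7.3 RPKM in KO and 70.4 ± 4.8 RPKM in WT.

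Of 6 tested genes linked to B-1 cells, Plscr1, a scramblase that interferon also induces, was called higher, at 9.46 ± 0.34 RPKM in KO libraries, against 7.38 ± 0.89 RPKM in WT libraries (log2 change 0.35, adjusted p = 0.036), and 0 were lower. Spn (CD43), another marker of these cells, had 7.32 ± 0.72 RPKM in KO and 5.54 ± 1.21 RPKM in WT libraries, with an adjusted p of 0.0999. The other 4 tested were not called either, with log2 changes of 0.26 for Ptpn22, -0.06 for Bhlhe41, -0.10 for Cd5, itself a defining marker of B-1a cells, and -0.17 for Zbtb32. Genes of recombination and class switching gave 0 calls among 15 tested, and the defining genes of recombination were at or near 0: Rag1, Rag2 and Dntt averaged under 0.1 RPKM in both groups. The surrogate light chain gave 0 calls, with 1 of 4 genes tested (Vpreb3), and Vpreb2 was listed at 0 in all libraries.

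Of 9 tested survival and niche factors, 2 were called higher and 0 lower. Tnfsf13b, which encodes the B cell survival factor BAFF, had 9.41, 8.25, 7.92, 7.65 and 10.3 RPKM in KO 1, KO 4, KO 7, KO 8 and KO 17, against 5.86, 4.32, 6.04, 4.76 and 5.47 RPKM in WT 2, WT 9, WT 19, WT 86 and WT 89. All KO libraries lay above all WT libraries. On the log2 scale the change was 0.67 (SE 0.11, adjusted p = 0.0069 by limma). Il33, an alarmin of stromal cells, had 23.3 ± 3.3 RPKM in KO and 15.8 ± 2.1 RPKM in WT libraries (log2 change 0.54, adjusted p = 0.026). Of 9 tested antibody receptors and transporters, 1 was called higher: Fcgr2b, the inhibitory IgG receptor of B cells and macrophages, had 67.1 ± 9.6 RPKM in KO and 49.5 ± 2.9 RPKM in WT libraries (log2 change 0.43, adjusted p = 0.031).

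Lists for other tissues that the fat pad could hold gave no calls. Of 11 tested T cell genes, 10 of lymph node and lymphoid stroma and 5 of ovary, oviduct and uterus, 0 were called in either direction. The summed lymphoid stroma level was 143 to 205 RPKM in KO and 140 to 156 RPKM in WT libraries, and 2 genes made up most of it. Mfge8 had 87.3 ± 12.9 RPKM in KO and 80.2 ± 7.7 RPKM in WT libraries. Lyve1 had 39.5 ± 15.3 RPKM in KO and 25.0 ± 6.3 RPKM in WT libraries (SD, n = 5 each). Ccl21a was listed at 0 in all libraries, and Ccl19 and Glycam1 averaged under 0.5 RPKM. The T cell list summed to 18.0 to 24.1 RPKM in KO and 15.3 to 29.9 RPKM in WT libraries. The ovary, oviduct and uterus list summed to 21.9 to 37.4 RPKM in KO and 20.6 to 24.8 RPKM in WT libraries. Its most abundant genes were Star and Ltf. Star had 9.89 to 16.2 RPKM in KO and 10.5 to 12.8 RPKM in WT libraries. Ltf had 5.11 to 17.6 RPKM in KO, highest in KO 8, and 2.67 to 6.44 RPKM in WT libraries. The part of these tissues in the immunoglobulin values was not tested beyond these levels.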

How the data were processed

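The authors deposited RPKM values, 1 table of genes and 1 of transcripts, for 10 libraries of polyA RNA. The submitters' processing notes name bcl2fastq, STAR 2.0.4b1, featureCounts and Subread. No build or annotation is named in the labels, nor how reads that match several segments were handled, which bears on near-identical V segments. Rows repeated for an identifier held the same values, which left 40503 genes of 40770 rows and 84046 transcripts of 84752 rows. Within a gene, RPKM were whole multiples of a step, and whole reads were recovered for 25121 of 25122 genes above 0 in at least 3 libraries (tolerance 0.001 reads), including all 166 members. Totals were 14440547 to 20178082 reads per library. The recovered length equalled that of GENCODE M21 for 43 members.

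Genes with at least 0.5 RPKM in at least 5 libraries were tested: log2(RPKM + 0.5) was fitted by limma 3.58.1 (R 4.3.3; moderated variances with a trend and robust settings), 2-sided, with Benjamini-Hochberg adjustment over the 17038 genes tested and a threshold of 0.05. Changes are KO minus WT on this scale, which understates the change of low genes. All adjusted p-values without another test named are from limma. Transcripts were fitted alike (44475 tested). Constant genes and Med19 also had an exact permutation test. A further pair set in the design, Ighd with Cd79a, could not be correlated because Ighd was not analysed here. The fit was also run on simulated reads. They were drawn with a common dispersion for all genes, not with the wide spread of these segments, so that run does not vouch for the fit on them. The members, marker lists and comparisons were chosen with earlier results of these data known. The genes named are all constant, J and D members, the 5 V segments of highest mean per locus, called members, the 6 most and 4 least uneven V segments, the segments next to the threshold, and called or abundant marker genes. Ighv12-3, Igkv4-91, the closest relatives, Cd79a, the other tested B-1 cell genes, Jchain, Xbp1 and marker genes at or near 0 were added after their values were seen. Some genes of the marker lists are not reported here. Sequences were looked up by transcript identifier in GENCODE M21 (GRCm38). Libraries are separate animals by their numbers; no batch is given.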

Additional observations from a re-analysis of the deposited data

Results flagged for a closer look

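In the groups of 5 libraries, single values that lay apart from the other 4 were frequent. Among 41 named members, and so 82 groups, 24 values in 20 genes passed Dixon's test at its 95% critical value of 0.71. This was 29.3% of the groups, and 23 of the values were the highest of their group. The test's own rate of about 5% holds for values with a normal distribution, while RPKM without a log scale were used here. The 41 members include 6 V segments named for having a library far above the median, so the share of 29.3% is partly set by that choice. Without those 6 it was 18 of 70 groups (25.7%). Genes are not independent here, since a V, a J and a constant gene are read from the same transcript.

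In KO 4, Ighg3 stood at 700.4 RPKM (the next KO library at 107), Igkv8-16 at 373 RPKM, Iglv1 at 258 RPKM, Ighv9-3 at 122 RPKM, Igkj2 at 1360 RPKM, Igkj4 at 369 RPKM and Igkj5 at 237 RPKM. In KO 1, Igkv12-89 stood at 184 RPKM and Ighg2c at 97.8 RPKM. In KO 17, Ighv14-4 stood at 35.9 RPKM and Ighv8-4 at 13.7 RPKM.

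In WT 89, Igkv12-89 stood at 828 RPKM, Ighg3 at 279 RPKM, Ighj4 at 270 RPKM, Igkv15-103 at 232 RPKM and Ighv5-15 at 0.956 RPKM. In WT 86, Igkv8-24 stood at 659 RPKM, against at most 16.4 RPKM in the other WT libraries, and Ighv11-2 at 537 RPKM. In WT 2, Ighj2 stood at 144 RPKM and Ighd4-1 at 11.4 RPKM from 2 reads, and Iglv1 was the lowest of its group at 44.1 RPKM. Igkv4-57-1 stood at 63.6 RPKM in WT 19, and Ighg1 at 19.4 RPKM and Ighv14-4 at 3.68 RPKM in WT 9. What set these animals apart was not tested.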

How the results depend on the processing

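No paired analysis was possible because KO and WT mice carry different animal numbers. The call of Igkv14-111 was lost, and 0 members were called higher, with no filter, with median-ratio scaling and with voom on recovered reads; leaving out 1 library gave 0 to 2 called members, with Ighv6-7 added without KO 17 and Ighv1-36 in its place without KO 7. No setting called a member lower. The number of members was 181 at a mean of 0.5 RPKM, 136 at 2 RPKM and 146 by a median of 1 RPKM. Of 51 genes followed over 19 alternatives (18 for Ighv8-4 and Ighv5-15, which did not pass the filter at 1 RPKM), 22 turned their direction in at least 1, none of them called with the settings of the report.

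With median-ratio scaling the log2 change was -0.0443 for Igkc, -0.0473 for Ighv11-2, -0.0406 for Ighv6-6 and -0.0775 for Igkv1-110. With quantile normalization it was 0.0385 for Ighm, -0.0284 for Ighv6-6 and -0.0725 for Igkv1-110, with array weights -0.0389 for Ighv11-2, and for Ighv8-4 -0.17 with a pseudocount of 0.1 and -0.36 with voom. Leaving out each library in turn, the log2 change ran from -0.15 to 0.27 for Igkc, -0.14 to 0.20 for Ighm, -0.16 to 0.47 for Igha, -0.24 to 0.52 for Ighv11-2, -0.021 to 0.82 for Ighv9-3, -0.19 to 0.059 for Ighv6-3 and -0.17 to 0.20 for Ighv6-6. It ran from -0.042 to 0.80 for Igkv14-126, -0.77 to 0.12 for Igkv8-16, -0.049 to 0.46 for Iglv1, -0.14 to 0.72 for Iglv2, -0.33 to 1.21 for Igkv4-57-1, -0.48 to 0.73 for Ighv8-4, -0.32 to 0.45 for Ighv2-6, -0.36 to 0.13 for Ighv4-1 and -0.23 to 0.36 for Igkv1-110. For J and D segments it ran from -0.067 to 0.60 for Ighj1, -0.63 to 0.078 for Igkj2, -0.44 to 0.035 for Igkj1, -0.10 to 0.40 for Igkj4, -0.68 to 0.029 for Igkj3 and -0.57 to 0.21 for Ighd1-1. The cause of these turns was not tested.

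Without the 2 farthest libraries, r was 0.82 for Igkc and Jchain, 0.55 for Igha and Jchain and 0.75 for Ighm and Jchain, each past the threshold with all libraries and not without, and -0.15 for Igkc and Cd79a. On deviations from group means Igkc and Mzb1 had an r of 0.72, then past the threshold (adjusted permutation p = 0.037). Counts of reads limit the short J and D segments and the V segments near the 1 RPKM threshold: 48 members had under 10 reads in at least 5 libraries. Called marker genes held in part: Tnfsf13b in all 19 alternatives, Ssr4 in 13, Il33 in 12, Fcgr2b in 9 and Plscr1 in 8.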

Other observations

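The constant gene of IgE, Ighe, was below the threshold for the segments described. Its transcript was listed at 0.037 RPKM in KO 4 and 0.058 RPKM in KO 17 and at 0 in the other 8 libraries.

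The gene and transcript tables did not list the J segments alike. The transcripts of all 5 kappa J segments and of Ighj3 were at 0 in every library of the transcript table, although the genes were above 0 in the gene table. The Ighj1 transcript had 100.5 to 219 RPKM in KO and 93.9 to 313 RPKM in WT libraries there, and the Ighj4 transcript 46.2 to 114 RPKM in KO and 33.5 to 178 RPKM in WT libraries. The cause was not tested.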
